A study of Mus musculus with 3 samples.

Results

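The genes described here take up, store, make and oxidise fatty acids or make cholesterol. They are 51 mouse genes of the 23458 that could be named on the array, and were listed by function. All 51 had probes, 77 in all, with 1 probe for 30 genes and 2 to 4 probes for the other 21. They fall into 6 groups by role, with 7 genes of uptake and activation, 7 of storage and lipolysis, 10 of fatty acid synthesis, 7 of oxidation, 14 of sterol synthesis and 6 regulators.

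The 3 arrays each held RNA of 30 pooled ICR mouse blastocysts, 1 array per condition. Young blastocysts came from females 3 to 6 weeks old, and aging and suppressed aging blastocysts from females 43 to 53 weeks old. All zygotes were flushed from superovulated, mated females 18 h after hCG and cultured in KSOM for 96 h. For the suppressed aging group the medium also held an anti-CXCL5 neutralizing antibody at 10 μg/ml and a CXCR2 selective antagonist at 10 nM, whereas the young and aging groups had no such treatment. The mice carried no transgene or deletion that the labels name. The antibody and the antagonist were given together, so their effects cannot be told apart, and no young group received them. With 1 array per condition there is no replicate, no error between embryos and no test, and every difference below compares 2 of the 3 pools. Since each pool mixed whole embryos, fewer cells of a type and less RNA per cell cannot be told apart.

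A blastocyst stores fat in lipid droplets and can release fatty acids from them, which carnitine palmitoyltransferases pass into mitochondria for beta-oxidation. Cholesterol is built from acetyl-CoA through mevalonate, farnesyl diphosphate, squalene and lanosterol. When sterol in the endoplasmic reticulum is low, SCAP carries the SREBP proteins to the Golgi, where they are cut and released to switch on the genes of this pathway, and INSIG proteins hold them back when sterol is plentiful. PPAR receptors bind fatty acids and control genes of fat storage and oxidation.

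Levels are given as the log2 of spot intensity relative to the 75th percentile of the same array, so that 0 is the intensity that 1 probe in 4 exceeded, an intensity of 145 in young, 155 in aging and 122 in suppressed aging blastocysts. Where a gene had several probes, the one with the highest mean level was used, and the other probes are given beside it. Levels of different probes are not comparable with each other, so each gene was compared only with itself. The chosen probe was well above background on all 3 arrays for 48 of the 51 genes, on the young array only for Ppara and on none for Cd36 and Lipa. Over replicate spots of a probe on 1 array the median SD of log2 intensity was 0.053, 0.049 and 0.045 on the young, aging and suppressed aging arrays, which covers the hybridization and not the amplification or the embryos.

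**Figure D1:**
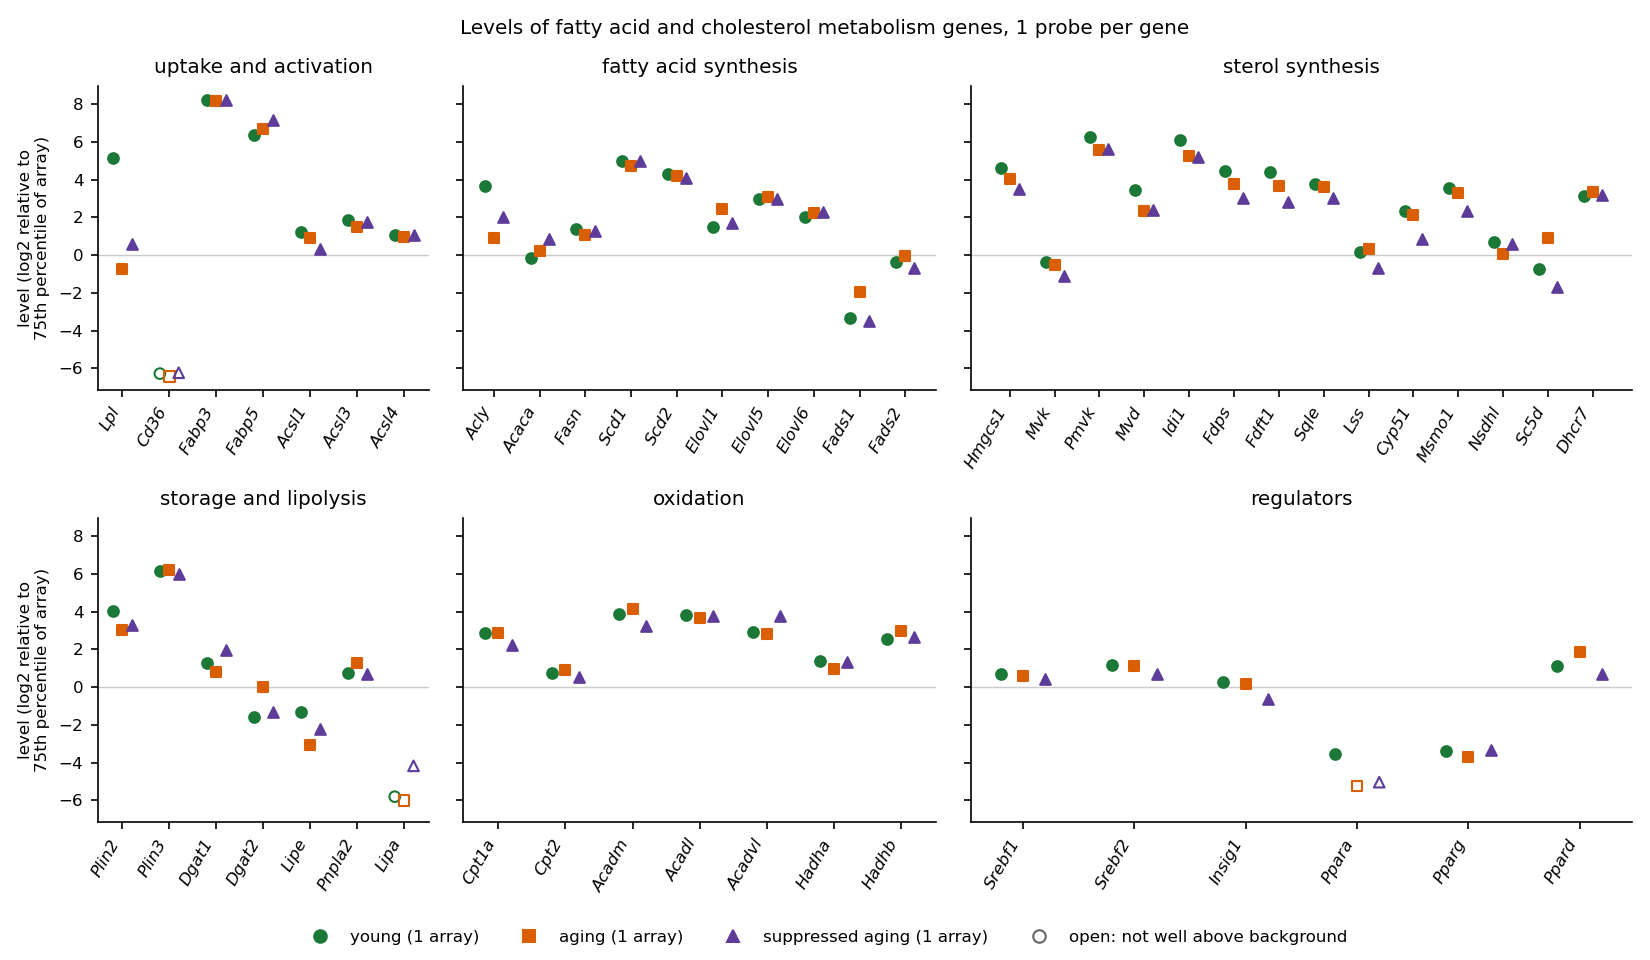
Level of each gene on the 3 arrays, by role, as log2 intensity relative to the 75th percentile of the array, with 1 point per array and 1 probe per gene; open points were not well above background. In the sterol synthesis panel the suppressed aging point lies below the young point for 13 of 14 genes, and Lpl stands apart on the young array at 5.16.

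The arrays carried the markers of a blastocyst. All 8 trophectoderm, 5 epiblast and 4 primitive endoderm markers were well above background on all 3 arrays. Their summed linear levels, in units of the 75th percentile, were 504, 382 and 449 for trophectoderm in young, aging and suppressed aging blastocysts, 1013, 1223 and 1130 for epiblast, and 15.9, 19.0 and 15.9 for primitive endoderm. Such sums give bright probes more weight, so they are set only against the same sum on another array. Nanog, with log2 levels of 9.88, 10.14 and 10.03, makes up most of the epiblast sum. Between aging and young blastocysts the primitive endoderm markers went both ways, with 0.99 for Gata6, 1.28 for Pdgfra, -0.04 for Gata4 and -1.53 for Sox17. The part that shifts of these sums play in the results below was not tested. Of 10 cumulus and granulosa markers 6 were not well above background on any array, among them Fshr, Has2 and Cyp11a1, and the summed level of the list was 406, 374 and 439. Foxl2 of that list was well above background, with log2 levels of 8.66, 8.54 and 8.77, and makes up nearly all of this sum. The median log2 level of the list was -5.71, -5.16 and -5.13. Of 7 blood and macrophage markers 3 were on no array, including Ptprc and Adgre1, with sums of 24.2, 20.5 and 23.3. Within that list Csf1r was at log2 levels of 4.19, 4.03 and 4.39, and Cd68 at 2.30, 1.37 and 0.80, so that Cd68 was lower than in young by 0.92 in aging and 1.49 in suppressed aging blastocysts. Of 6 adipocyte markers Adipoq and Cfd were on none, and the sums were 2.62, 1.39 and 1.36. Of 3 oviduct markers Foxj1 and Pax8 were on none and Ovgp1 was above background on the suppressed aging array only, with sums of 0.0665, 0.0665 and 0.218.

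Sterol synthesis, a group singled out here after its values were seen, had most of its members to one side. Between suppressed aging and young blastocysts, 13 of the 14 genes were lower in the suppressed group, with a median log2 difference of -0.96, whereas the median over 15931 genes was 0.03 and 47.6% of them were lower. Of the 14, 6 were lower by over 2-fold and 0 higher by over 2-fold, against 7.64% of all genes lower and 8.67% higher. The 6 were Hmgcs1, Mvd, Fdps, Fdft1, Cyp51 and Msmo1. Dim probes scatter more, so the same was read among the 7889 genes with a mean level over 0, of which 3.9% were lower by over 2-fold. Of the sterol genes 11 had such a level, and the same 6 of these 11 were lower by over 2-fold.

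**Figure D2:**
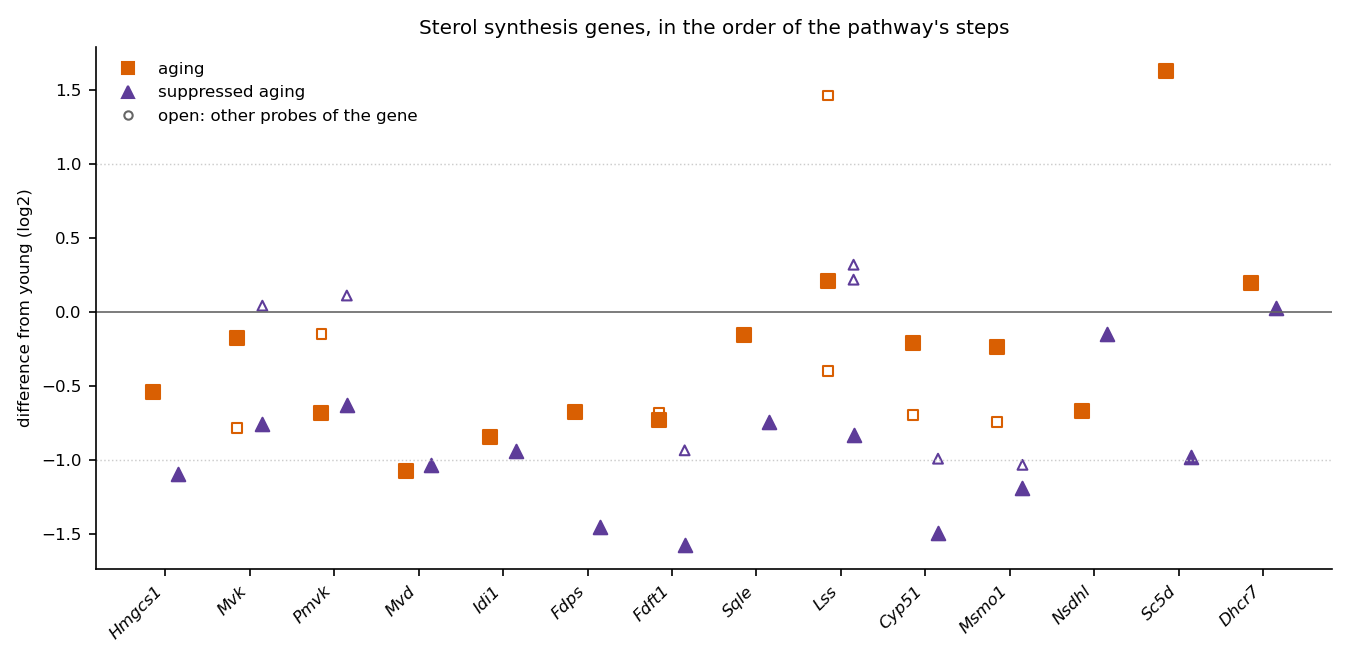
Log2 difference from young blastocysts for the 14 sterol synthesis genes, ordered along the pathway, in aging (squares) and suppressed aging blastocysts (triangles), 1 array each; filled points are the brightest probe of a gene and open points its other probes, and dotted lines mark 2-fold. All filled triangles but that of Dhcr7, at 0.03, lie below 0.

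Since the sterol genes lay to one side together, the bases before their start sites were searched for 3 short motifs on both strands, over 250 bases. These were the CCAAT box bound by NF-Y (CCAAT, or ATTGG on the other strand), a sterol element bound by SREBP (TCACNCCAC, or GTGGNGTGA) and the E-box CACGTG. The promoters are those of RefSeq on GRCm38.p6, which held 41 of the 51 genes and 27025 genes of all kinds, coding or not. A CCAAT box stood in 11 of 11 sterol synthesis promoters, in 26 of 41 promoters of all members and in 37.5% of all genes. It was in 5 of 6 promoters of regulators, 3 of 5 of uptake, 3 of 5 of storage, 3 of 7 of fatty acid synthesis and 1 of 7 of oxidation genes. The sterol element in this spelling was in Hmgcs1 and Acsl1 only and in 1.22% of all genes, and the E-box in 5 of 41 members and 6.86% of all genes. A match is a description of sequence and not of binding, and SREBP also binds other spellings.

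The 200 bases that end just before the start site are shown for the sterol genes with a promoter entry that were lower by over 2-fold in suppressed aging than in young blastocysts, and for Nsdhl, which was not. Capitals mark the motifs above.
Hmgcs1, chr13:119690151-119690350, plus strand: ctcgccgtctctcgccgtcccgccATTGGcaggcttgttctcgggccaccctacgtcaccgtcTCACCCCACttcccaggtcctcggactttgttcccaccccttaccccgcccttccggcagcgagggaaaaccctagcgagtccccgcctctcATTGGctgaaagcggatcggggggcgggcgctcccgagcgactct
Mvd, chr8:122443423-122443622, minus strand: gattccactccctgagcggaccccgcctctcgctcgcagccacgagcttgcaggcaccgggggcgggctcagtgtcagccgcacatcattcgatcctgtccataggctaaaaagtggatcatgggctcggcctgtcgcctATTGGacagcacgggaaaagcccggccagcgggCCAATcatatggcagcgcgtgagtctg
Cyp51, chr5:4104698-4104897, minus strand: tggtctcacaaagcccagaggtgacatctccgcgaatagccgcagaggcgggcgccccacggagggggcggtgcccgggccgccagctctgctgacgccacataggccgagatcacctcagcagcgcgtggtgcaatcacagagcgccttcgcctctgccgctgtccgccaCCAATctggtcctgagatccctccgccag
Msmo1, chr8:64733579-64733778, minus strand: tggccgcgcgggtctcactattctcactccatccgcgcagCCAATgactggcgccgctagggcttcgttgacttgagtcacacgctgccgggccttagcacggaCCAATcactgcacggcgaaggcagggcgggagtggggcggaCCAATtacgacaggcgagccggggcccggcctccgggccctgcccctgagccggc
Nsdhl, chrX:72918321-72918520, plus strand: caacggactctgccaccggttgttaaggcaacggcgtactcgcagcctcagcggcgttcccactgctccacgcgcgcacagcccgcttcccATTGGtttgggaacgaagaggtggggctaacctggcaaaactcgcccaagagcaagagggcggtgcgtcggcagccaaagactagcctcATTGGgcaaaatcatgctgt
Msmo1 has 3 CCAAT boxes in this stretch, Hmgcs1, Mvd and Nsdhl 2 each and Cyp51 1. The long capital run in Hmgcs1 is the sterol element. Nsdhl, with 2 boxes, differed by -0.15 and Cyp51, with 1, by -1.49. A link between the number of boxes and the difference was not tested.

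The early steps make mevalonate and turn it into isoprene units. Hmgcs1, which makes the HMG-CoA from which mevalonate is formed, was at 4.60 in young, 4.06 in aging and 3.51 in suppressed aging blastocysts. Mvd, the decarboxylase that yields isopentenyl diphosphate, was at 3.44, 2.37 and 2.41. Idi1, the isomerase of that product, was at 6.13, 5.28 and 5.19. Hmgcs1 thus stepped down from young to aging to suppressed aging, whereas Mvd and Idi1 were high on the young array and similar on the others. In suppressed aging against young blastocysts, Hmgcs1 was 2.13-fold, Mvd 2.05-fold and Idi1 1.91-fold lower. Mvk and Pmvk, the kinases between mevalonate and Mvd, had 2 probes each that differed: the brightest was lower by 0.76 and by 0.63 on the log2 scale, and the second was at 0.04 and 0.11.

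The middle steps join isoprene units to squalene. Fdps, which makes farnesyl diphosphate, was at 4.47 in young, 3.79 in aging and 3.01 in suppressed aging blastocysts. Fdft1, the squalene synthase, was at 4.41, 3.68 and 2.83, which are spot intensities of 3069, 1975 and 870. Sqle, the squalene epoxidase and a controlled step of the pathway, was at 3.76, 3.61 and 3.02. All 3 were lowest on the suppressed aging array and highest on the young array. Against young blastocysts Fdft1 was 2.98-fold, Fdps 2.74-fold and Sqle 1.68-fold lower in the suppressed group. The second probe of Fdft1 was at 3.64, 2.96 and 2.71 and gave a difference of -0.93 where the first gave -1.58.

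The late steps fold squalene into lanosterol and trim it to cholesterol. Cyp51, the lanosterol demethylase, with 1 CCAAT box in the stretch shown, was at 2.33 in young, 2.12 in aging and 0.84 in suppressed aging blastocysts on the first probe. Its second probe was at 0.99, 0.29 and 0.00. Msmo1, a methylsterol oxidase that acts later, was at 3.54, 3.31 and 2.35 on the first probe and 2.06, 1.32 and 1.03 on the second. Both probes of both genes were lowest on the suppressed aging array, and against young blastocysts they gave -1.49 and -0.99 for Cyp51 and -1.19 and -1.03 for Msmo1. For these genes the first probe placed most of the step between aging and suppressed aging blastocysts, and the second placed most of it between young and aging.

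The other late enzymes varied more. Lss, the lanosterol synthase, was at 0.15, 0.35 and -0.68 on its brightest probe, lower by 0.83 in suppressed aging than in young blastocysts, but its other 2 probes gave 0.22 and 0.32. Sc5d, the desaturase before Dhcr7, was at -0.73 in young, 0.90 in aging and -1.71 in suppressed aging blastocysts on its only probe. It was higher by 1.63 in aging than in young and 2.61 below aging after suppression. Nsdhl, at 0.72, 0.06 and 0.57, and Dhcr7, the last reductase, at 3.15, 3.35 and 3.18, differed least between suppressed aging and young blastocysts, by -0.15 and 0.03.

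Split into the steps of the design, most sterol genes were lower in both. The comparisons share arrays, so they are not separate evidence. In aging blastocysts 11 of 14 were lower than in young ones, with a median of -0.39 against 0.03 for all 16164 genes, of which 48.1% were lower. Of these Mvd alone was lower by over 2-fold, and Sc5d alone higher, beside 9.19% and 9.86% of all genes. After suppression 11 of 14 were lower than in untreated aging blastocysts. The median of the 14 was -0.59, against -0.0034 for 15875 genes, of which 50.3% were lower. The count was 13 under quantile normalization, housekeeping centring and the authors' values, 12 under normexp correction and 10 with the mean over probes. The settings that gave 13 also lowered the median of all genes, to -0.03, -0.06 and -0.09. Lss, Cyp51 and Sc5d were lower by over 2-fold and 0 genes higher, where 8.5% and 8.77% of all genes were. The other probes gave -1.25 and 0.72 for Lss and -0.29 for Cyp51, and Sc5d has only 1 probe. Among genes with a mean level over 0, where 4.87% and 3.21% of all genes were lower by over 2-fold in these comparisons, Mvd of 11 sterol genes was so in the first and Cyp51 of 11 in the second.

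A second probe was measured for 6 of the sterol genes. Its median difference between suppressed aging and young blastocysts was -0.45, and 3 of the 6 were lower. Both probes pointed the same way for these 3, Fdft1, Cyp51 and Msmo1, and for 10 of 19 members in all, where 56% of 4808 genes did so. Between aging and young blastocysts both probes pointed the same way for all 6 sterol genes and for 14 of 19 members, against 56.7% of 4856 genes. For suppressed against untreated aging it was 5 of 6 and 12 of 20, against 54.9% of 4819 genes.

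**Figure D3:**
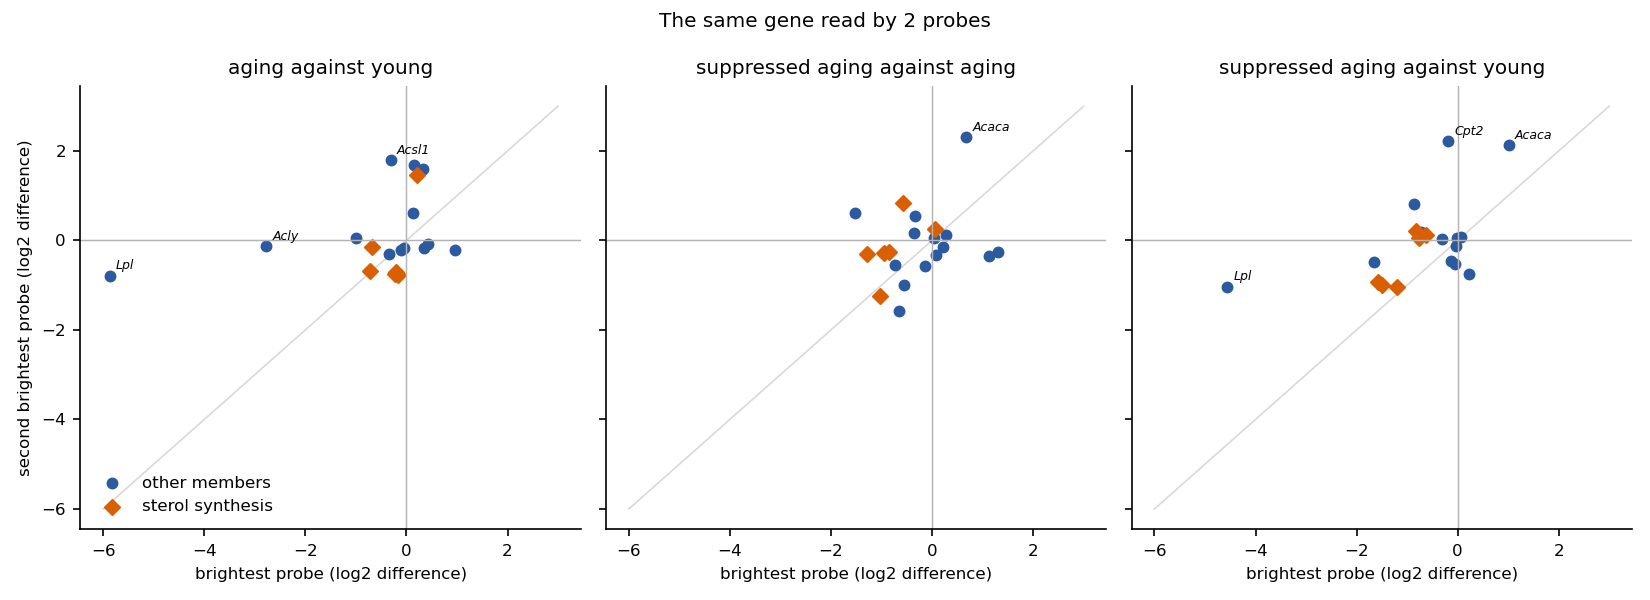
Log2 difference of the brightest probe (horizontal) against the second brightest probe (vertical) of each gene with both measured, in the 3 comparisons; the grey diagonal marks equal values, and genes past 1.7 on either axis are named. In suppressed aging against young blastocysts 3 sterol genes (diamonds) lie low on both axes, and Lpl lies far to the left, at -4.56 and -1.04.

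The regulators of the sterol genes were measured too. Insig1, which retains SCAP and is itself a target of SREBP, was at 0.25 in young, 0.18 in aging and -0.63 in suppressed aging blastocysts, 1.84-fold lower in suppressed aging than in young. Srebf2, which encodes the SREBP that favours cholesterol genes, was at 1.19, 1.10 and 0.69, and Srebf1, which favours fatty acid genes, at 0.71, 0.61 and 0.42. All 3 were lowest on the suppressed aging array and nearly equal on the other arrays, with differences between aging and young of -0.07, -0.09 and -0.09. Of the 6 regulators, the 5 measured on all arrays differed from young blastocysts by less than 2-fold in both aging groups, and Ppara has only a limit.

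Among 17 other genes of sterol synthesis and handling, 16 could be compared between suppressed aging and young blastocysts. Of these 11 were lower and 5 higher, with a median of -0.22, beside 47.6% of all genes lower and a median of 0.03. Ebp and Lbr, enzymes of the late steps, differed by -0.11 and 0.02. After suppression 13 of 16 were lower than in untreated aging blastocysts, with a median of -0.35, and in aging against young 6 of 15, with a median of 0.24. Of all genes 50.3% and 48.1% were lower in these comparisons, with medians of -0.0034 and 0.03.

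Fatty acid uptake and activation held the largest single difference of all members. Lpl, which encodes the lipase that frees fatty acids from lipoproteins, was at 5.16 in young, -0.71 in aging and 0.60 in suppressed aging blastocysts on its brightest probe, 58.5-fold lower in aging and 23.5-fold lower in suppressed aging than in young. Its other 2 probes were at -1.37, -2.15 and -2.40 and at -1.95, -2.48 and -2.75, and gave -0.79 and -0.54 for aging and -1.04 and -0.81 for suppressed aging. All 3 probes were highest in young blastocysts, by far the most on the first. Between the aging arrays the first probe was higher after suppression by 1.31 and the others lower by 0.25 and 0.27. The macrophage marker Cd68 and the adipocyte marker Cidec were also highest on the young array, with differences from young of -0.92 and -1.95 in aging and -1.49 and -3.39 in suppressed aging blastocysts, whereas Csf1r differed by -0.17 and 0.20 and Ptprc, Adgre1 and Adipoq were not well above background on any array. The adipocyte markers Lep, Retn and Plin1 gave -0.58, -0.11 and -0.54 in aging and -0.41, -0.90 and -0.18 in suppressed aging blastocysts. Of the blood markers, Hba-a1 gave 0.91 and -0.78, and Alas2 gave -0.77 and at most -1.17. The part of these markers was not tested.

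No other uptake gene passed 2-fold on its chosen probe. Fabp3, a fatty acid carrier, was at 8.24, 8.18 and 8.21 on one probe and 8.09, 7.91 and 7.96 on the other. Fabp5, a related carrier, was at 6.36, 6.71 and 7.16, so it was 1.73-fold higher in suppressed aging than in young blastocysts. Acsl1, Acsl3 and Acsl4, which activate fatty acids with coenzyme A, differed by -0.31, -0.35 and -0.12 between aging and young. The second probe of Acsl1 went the other way, by 1.80, whereas that of Acsl3 gave -0.30 and the other 2 of Acsl4 gave -0.22 and -0.07. After suppression Acsl3 and Acsl4 differed from untreated aging by 0.22 and 0.07 on the first probe and by -0.15 and -0.32 on the second. Cd36, a fatty acid transporter, had 1 probe, and it was not well above background on any array.

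Outside the list, Slc27a1, a fatty acid transport protein, was at -0.40 in young, 1.21 in aging and 5.47 in suppressed aging blastocysts on its only probe. Its difference between suppressed aging and young was 5.88. It was 1 of 2 other pathway genes past 5-fold in that comparison, where 2.43% of all genes were. The other was Cidec, a lipid droplet protein and one of the adipocyte markers above, at 0.00, -1.95 and -3.39. Of the 101 other pathway genes 93 could be compared between suppressed aging and young blastocysts, with 41 higher, 52 lower and a median of -0.05, and 7 were higher and 5 lower by over 2-fold, shares near the 8.67% and 7.64% of all genes. In aging against young it was 92, with 47 higher, 45 lower, and 6 higher and 3 lower by over 2-fold beside 9.86% and 9.19% of all genes, and for suppressed against untreated aging 91, with 45 higher, 46 lower, and 5 higher and 7 lower by over 2-fold beside 8.77% and 8.5%.

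Storage and lipolysis genes went both ways. Plin2, the coat protein of lipid droplets, was at 4.03 in young, 3.03 in aging and 3.30 in suppressed aging blastocysts, 1.99-fold lower in aging than in young, while its dimmer second probe was at -0.45, -0.38 and -0.26. Plin3, another droplet coat, was at 6.17, 6.22 and 6.01. Plin2 was thus high on the young array by 1 of its probes only, and Plin3 was even across arrays.

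The diacylglycerol acyltransferases, which make triglyceride, had opposite courses. Dgat1 was at 1.27, 0.81 and 1.95, higher by 1.14 after suppression than in untreated aging blastocysts. Dgat2 was at -1.60, -0.01 and -1.34, 2.99-fold higher in aging than in young and 2.51-fold lower after suppression. Lipe, the hormone-sensitive lipase, was at -1.33, -3.09 and -2.23, 3.38-fold lower in aging than in young. Pnpla2, the first lipase of droplet triglyceride, was at 0.77, 1.27 and 0.68. Each of these rests on 1 probe. Under normexp background correction, one of the alternatives below, Lipe and Dgat2 differed between aging and young by -0.63 and 0.83, both under 2-fold. Dgat2 and Dgat1 then differed after suppression from untreated aging by -0.59 and 0.98, also under 2-fold. Lipa, the lysosomal acid lipase, was not well above background on any array.

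Fatty acid synthesis genes were mostly even. Against young, the median difference of the 10 genes was 0.16 in aging and -0.07 in suppressed aging blastocysts, and it was -0.02 between the aging groups. Fasn, the fatty acid synthase, was at 1.40, 1.05 and 1.28. Scd1 and Scd2, closely related desaturases whose probes may share signal, were at 5.02, 4.70 and 5.01 and at 4.31, 4.19 and 4.10. The elongases Elovl5 and Elovl6 differed from young by 0.13 and 0.19 in aging and by -0.02 and 0.25 in suppressed aging blastocysts. The second probe of Elovl5 gave 0.61 and 0.05.

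Acly and Acaca supply the synthesis with acetyl-CoA and malonyl-CoA, and both had probes that disagreed. Acly was at 3.66, 0.89 and 2.01 on the brightest probe, 6.82-fold lower in aging than in young, and at 1.33, 1.20 and 0.85 on the other. Acaca was higher in suppressed aging than in young blastocysts by 1.01 and 2.13 on its 2 brightest probes and lower by 0.94 and 0.25 on the others. The desaturases Fads1 and Fads2 make polyunsaturated fatty acids. Fads1 was at -3.33, -1.94 and -3.47 on the chosen probe, higher in aging by 1.38, and its second probe was at -3.22 in aging and -2.60 in suppressed aging blastocysts and not well above background in young. Under normexp correction Fads1 differed by only 0.34 between aging and young and by -0.27 between suppressed and untreated aging. Fads2 was at -0.37, -0.04 and -0.68 and on the second probe at -3.34, -1.75 and -3.32, so both were highest in aging blastocysts. Elovl1, an elongase of saturated chains, was at 1.48, 2.45 and 1.71, and its second probe differed by -0.21 between aging and young where the first gave 0.97.

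No oxidation gene passed 2-fold in any comparison on the chosen probe, over 7 genes, and against young their median was -0.02 in aging and -0.07 in suppressed aging blastocysts, with -0.33 between the aging groups. Cpt1a, which controls the entry of fatty acids into mitochondria, was at 2.87, 2.85 and 2.22, 1.55-fold lower after suppression than in untreated aging blastocysts. Acadm and Acadvl, the dehydrogenases of medium and very long chains, were at 3.89, 4.14 and 3.27 and at 2.91, 2.83 and 3.76. They thus stood apart on the suppressed aging array in opposite directions. Acadl, at 3.83, 3.67 and 3.77, and Hadha and Hadhb, the subunits of the trifunctional protein, at 1.41, 0.97 and 1.34 and at 2.57, 3.00 and 2.64, differed from young by at most 1.35-fold in both aging groups. The dimmer probe of Cpt2 gave 1.68 in aging and 2.22 in suppressed aging against young, where the brighter gave 0.14 and -0.19. The second probe of Hadhb gave -0.09 and 0.09 where the first gave 0.43 and 0.07.

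Of the PPAR receptors, Ppard was at 1.12 in young, 1.88 in aging and 0.67 in suppressed aging blastocysts, 2.31-fold lower after suppression than in untreated aging. Pparg was near the detection limit, at -3.38, -3.71 and -3.34. Ppara was measured on the young array alone, at -3.57, so it was at least 1.69-fold lower in aging and at least 1.29-fold lower in suppressed aging blastocysts. Its second probe was not well above background on any array.

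Of all 51 members, 49 gave a value for aging against young, and its median was -0.12. Of these 3 were higher and 4 lower by over 2-fold, shares near the 9.86% and 9.19% of all genes. For suppressed against untreated aging 48 gave a value, with a median of -0.18, and 3 were higher and 6 lower by over 2-fold beside 8.77% and 8.5%. In suppressed aging against young 49 gave a value, with a median of -0.29, and 1 was higher and 8 lower, beside 8.67% and 7.64%. Without the sterol genes this was 1 higher and 2 lower of 35, with a median of -0.13. Past 5-fold were Lpl and Acly in the first comparison, where 2.59% of all genes were, Sc5d in the second, with 2.29%, and Lpl in the third, with 2.43%.

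**Figure D4:**
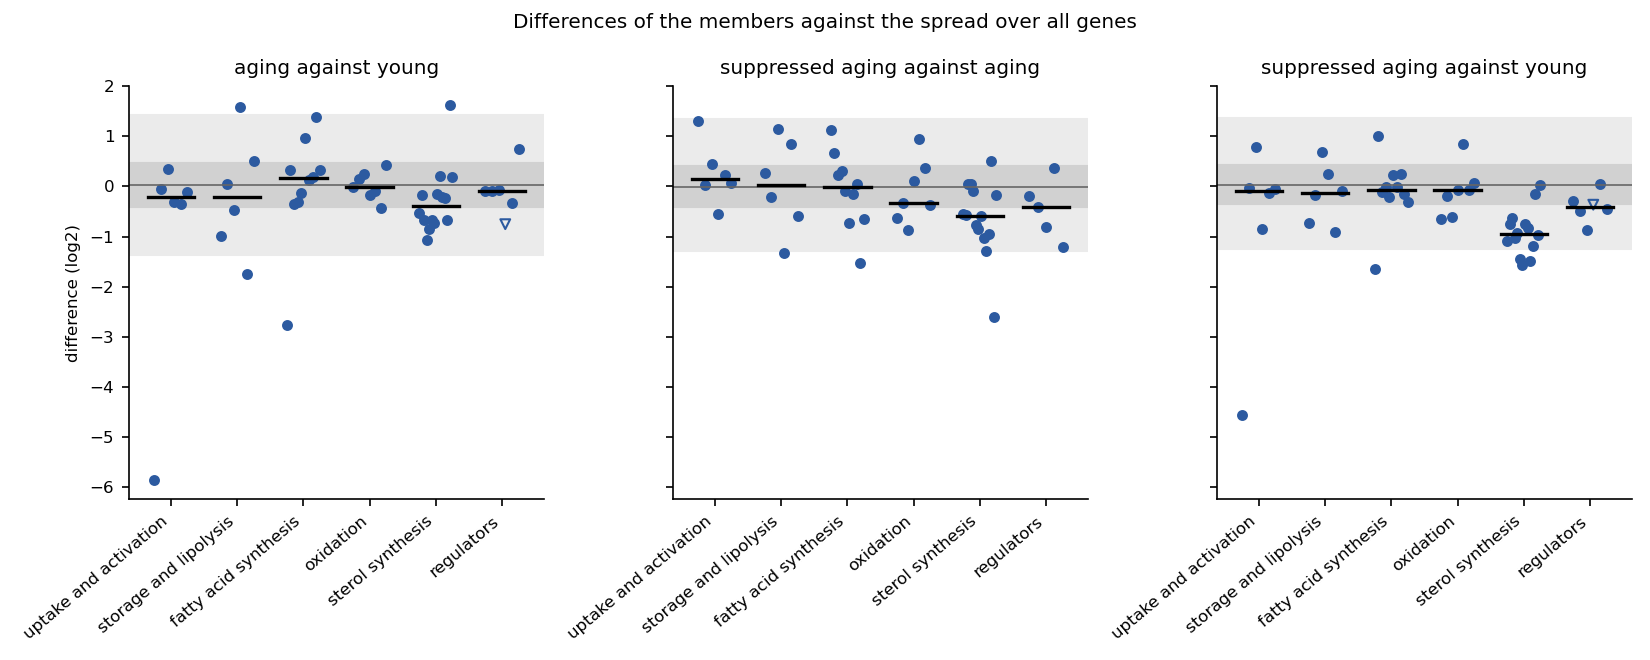
Log2 difference of each gene, by role, in the 3 comparisons, with 1 point per gene, a bar at the median of the role, and an open triangle for a limit set by the detection limit; the dark band runs from the 25th to the 75th percentile of all genes and the light band from the 5th to the 95th. In suppressed aging against young blastocysts the sterol synthesis median of -0.96 and the regulators' median of -0.41 lie below the dark band, and the medians of the other roles, from -0.13 to -0.07, lie within it.

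For genes with a mean level over 0, the 5th and 95th percentiles of the difference between suppressed aging and young blastocysts were -0.87 and 0.96. Of the sterol genes, Fdft1, Cyp51, Fdps, Msmo1, Hmgcs1, Mvd and Idi1 lay below that range. The sterol median of this comparison kept its sign under each of the 10 other ways of processing, at -0.45 with second probes and at -0.91 or lower under the rest. Not all of these could change it. All 14 genes were above background on every array, so the settings on dim probes give the same value. Centring and the authors' values shift all genes of an array by the same amount. Dhcr7 turned lower under 3 of the 10 ways, quantile normalization, normexp correction and the authors' values, so that 14 of 14 were lower there. The median of all members between suppressed aging and young blastocysts changed sign with second probes, to 0.032 over 20 genes.

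**Figure D5:**
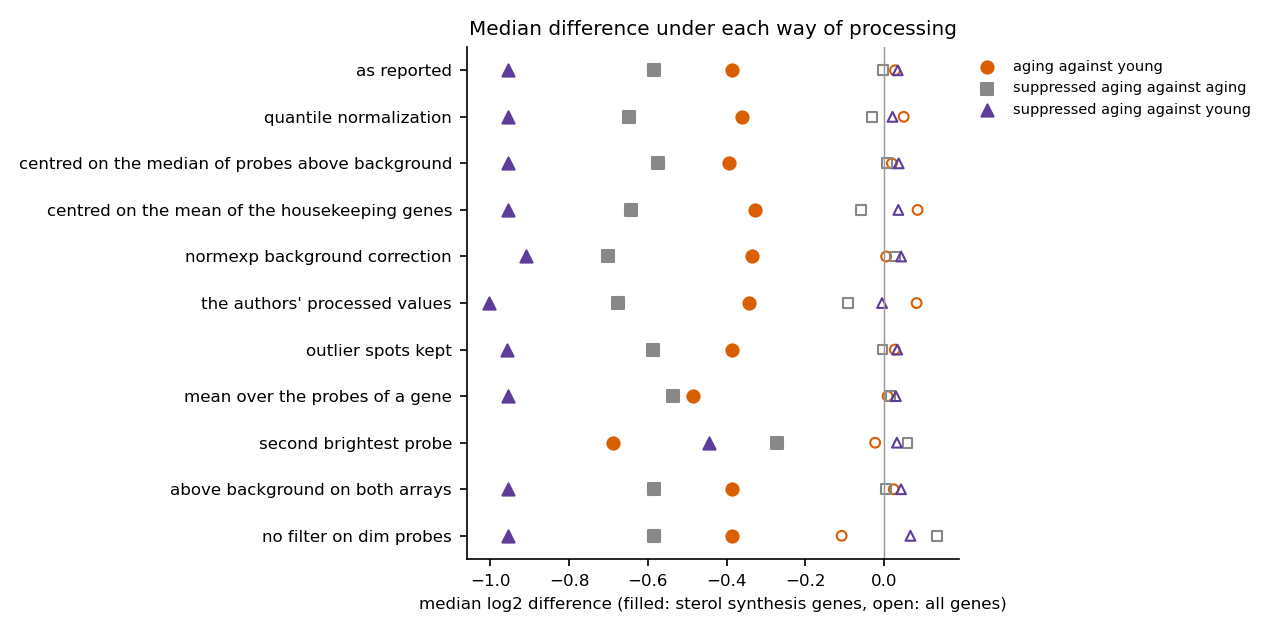
Median log2 difference of the sterol synthesis genes (filled) and of all genes (open) in the 3 comparisons, as reported and under each other way of processing. The filled points stay below 0 in every row, and move most with the second brightest probe, which 6 of the 14 genes have.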

How the data were processed

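The authors labelled RNA of 30 pooled blastocysts per condition with Cy3 and hybridized it to Agilent mouse arrays. The methods name an amplification by global PCR and the labels a kit for cRNA, and which of them was applied is not settled. Either can alter the amount of single fragments. The deposited scanner files give background-subtracted spot intensity from Agilent Feature Extraction 12.0.3.1, with no scaling across arrays. The authors' processed values, an alternative, equal this intensity times 3.46, 3.34 and 3.96 on the young, aging and suppressed aging arrays.

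Control and outlier spots were left out, spots of a probe were averaged as log2, and each array was set to 0 at its 75th percentile. RefSeq accessions were matched, without versions, to a gene table of GRCm38.p6, which named 33759 of 56591 probes. A probe well above background on 1 of 2 arrays gives a limit, set by the lowest level above background on the other (-4.20, -4.32 and -3.93), and one on neither gives nothing. Precision is limited by 1 array per condition, and no test was made.

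The genes, lists and thresholds were chosen with earlier results of these data known. Members past 2-fold, with probes that disagree, below background or differing least are named, and so are other pathway genes past 5-fold. Other named genes, and the results on sterol synthesis alone, were chosen after their values were seen. Some genes of the lists are counted but not reported here by name.

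Alternatives were quantile normalization, centring on probes above background or on 15 housekeeping genes, normexp correction (limma 3.58.1, offset 50, median pixel intensities), the authors' values, outlier spots kept, the mean over probes, the second brightest probe, probes above background on both arrays, and no filter. The calculation was tested on simulated data. Python 3.11.15, NumPy 2.4.6, pandas 2.3.3, Matplotlib 3.10.9 and R 4.3.3 were used.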

Additional observations from a re-analysis of the deposited data

How the results depend on the processing

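No paired analysis was possible because every group is a single array, and no array was left out for the same reason. Signal over background limits the dim members.

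The count of members past 2-fold, 7 in aging against young, 9 in suppressed aging against aging and 9 in suppressed aging against young, was 3 and 5 in the first 2 comparisons under normexp correction. Lipe, Dgat2, Fads1 and Mvd were then below 2-fold in aging against young. In suppressed aging against aging, Dgat2 and Fads1 were among those below it. With the mean over probes the count was 5 in suppressed aging against aging. With the second brightest probe, from which 20 members gave a value or a limit, it was 4, 3 and 5. On the brightest probe with the threshold raised to 5-fold, it was 2, 1 and 1. The median of all members moved between suppressed aging and aging from -0.18 to -0.26 under normexp, -0.27 with the authors' values, -0.093 with the mean over probes and -0.25 with second probes. Between suppressed aging and young it moved from -0.29 to 0.032 with second probes and -0.21 without a filter.

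The sterol synthesis median moved in aging against young from -0.39 to -0.48 with the mean over probes and -0.69 with second probes. In suppressed aging against aging it moved from -0.59 to -0.70 under normexp, -0.68 with the authors' values and -0.27 with second probes, and in suppressed aging against young from -0.96 to -0.45 with second probes. Over the 6 sterol genes with a second probe, 5, 4 and 3 were lower in the 3 comparisons. The cause was not tested, other than that fewer genes enter.

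Of 25 member differences past 2-fold, 3 changed direction, all between suppressed aging and aging blastocysts with the second probe, to -0.25 for Lpl, -0.35 for Acly and 0.62 for Fads1. Of 239 values under the alternatives 178 moved by at most 0.070 on the log2 scale, which is the SD that replicate spots give a difference. Part of these could not move, so the share does not measure stability. The settings on dim probes leave a difference measured on both arrays unchanged, and so does the mean over probes for a gene with a single probe.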
